A study of Mus musculus with 12 samples.

Results

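Transcripts of 10 genes of the interleukin-2 (IL-2) receptor pathway were followed in activated mouse CD4+ T cells, namely the cytokine gene Il2, the receptor chain genes Il2ra, Il2rb, Il2rg and Il7r, the transcription factor genes Stat5a and Stat5b, and the feedback inhibitor genes Cish, Socs1 and Socs2. The members were taken by gene symbol from the 45777 genes of the deposited expression table, in which each symbol was found once. All 10 passed the filter on low values, 0.5 FPKM or more in 3 or more samples, which left 15197 genes for testing. FPKM are fragments scaled to the length of the transcript and to the size of the library, so that levels of different genes can be set side by side per length.

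The cells were CD4+ T cells from the spleens of wild type C57BL/6 mice, 7 weeks of age in the sample labels, stimulated for 3 days with anti-CD3 at 0.5 µg/ml. All 4 groups carried this stimulus, and they differed in the drug added, with no drug in Control, metformin in the second group, FK506 (tacrolimus, which blocks the phosphatase calcineurin) in the third, and both drugs in Metformin+FK506, 3 samples in each. The methods of the study also list soluble anti-CD28 for T cell activation, and the doses of the drugs in these cultures are not stated in the sample labels. The cells were selected from splenocytes by magnetic beads for CD4, and nothing in the labels says that the 3 samples of a group came from separate mice or cultures, so p-values measure the spread between these samples, which may be technical.

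IL-2 is secreted by activated T cells and acts back on them through a receptor of 3 chains, the alpha chain CD25 (Il2ra), the beta chain CD122 (Il2rb) and the common gamma chain CD132 (Il2rg). The kinases JAK1 and JAK3 sit on the beta and gamma chains and phosphorylate STAT5A and STAT5B, which enter the nucleus and induce a set of genes that includes Il2ra itself and the inhibitors CIS (Cish), SOCS1 and SOCS2, which dampen the signal in turn. Calcineurin, the target of FK506, releases NFAT to the nucleus, where it acts on Il2 among other genes. The IL-7 receptor alpha chain (Il7r) pairs with the same common gamma chain and is known to be high on resting T cells and reduced after activation.

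The sequence just before the transcription start is shown for 3 members whose transcripts were lower under each drug, the cytokine, the alpha chain and an inhibitor. Each ends at or just before the RefSeq start in GRCm38.p6 and is written on the strand of the gene, without bases that lie in annotated exons, and capitals mark the NFAT core GGAAA or its reverse complement TTTCC. The windows lie at chr3:37125960-37126204 (minus strand) for Il2, chr2:11642542-11642791 (plus strand) for Il2ra and chr16:10785537-10785786 (minus strand) for Socs1.
Il2: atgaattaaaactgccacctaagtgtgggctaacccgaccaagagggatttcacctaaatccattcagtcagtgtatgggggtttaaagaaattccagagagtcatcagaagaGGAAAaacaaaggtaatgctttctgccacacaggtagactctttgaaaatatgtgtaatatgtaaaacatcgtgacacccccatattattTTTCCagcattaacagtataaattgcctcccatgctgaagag
Il2ra: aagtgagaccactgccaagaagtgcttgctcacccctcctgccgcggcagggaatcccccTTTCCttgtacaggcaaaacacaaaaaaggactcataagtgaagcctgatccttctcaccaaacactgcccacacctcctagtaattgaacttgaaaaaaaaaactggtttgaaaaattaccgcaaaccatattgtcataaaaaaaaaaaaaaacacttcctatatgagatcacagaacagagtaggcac
Socs1: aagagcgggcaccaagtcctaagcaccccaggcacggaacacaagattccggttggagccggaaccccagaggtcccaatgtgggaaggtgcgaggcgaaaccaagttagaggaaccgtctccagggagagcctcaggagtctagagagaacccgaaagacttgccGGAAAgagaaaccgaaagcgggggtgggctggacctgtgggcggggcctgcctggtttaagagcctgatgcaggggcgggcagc
The core was present in 2 places in the Il2 window, 137 to 133 and 47 to 43 bases before the start, and in 1 place each in the windows of Il2ra (190 to 186 bases before) and Socs1 (84 to 80 bases before). Among the windows not shown, that of Il2rg held 1 core. Of the 2 windows of Stat5b, 1 held 2 cores in 250 bases and the other held 0 in 107. That of Stat5a, which was also lower under each drug, held 0 in 111 bases. The windows of 107 and 111 bases were cut at exons and stop short of the start, so they are not comparable with whole windows. The windows of Stat5a and Stat5b lie inside the spans of these genes given below. A match of so short a motif is common, since 55.6% of the 32851 upstream windows of 250 bases in the RefSeq table hold it on either strand. The STAT motif TTCNNNGAA was found in 7.02% of all windows and has no match in the letters of these windows of 6 members, which are short and hold none of the distal elements of these genes. The table held 8 of the 10 members, and the windows of Cish and Il7r, which run into annotated exons, were not searched. The entries of Il2rb and Socs2 were not in it.

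The members lie on 8 chromosomes of GRCm38.p6. Il2 is at chr3:37120713-37125954, Il2ra at chr2:11642792-11693194, Il2rb at chr15:78479256-78511621, Il2rg at chrX:101264385-101268255, Il7r at chr15:9506159-9529941, Cish at chr9:107296659-107302784, Socs1 at chr16:10783808-10785536 and Socs2 at chr10:95383903-95417321. Stat5b (chr11:100780731-100859004) and Stat5a (chr11:100859351-100885169) are neighbours with 346 bases between them. How reads shared between genes were counted is not given in the sources used here. Of the 50-base stretches in their exons, Stat5a shared 15.2% with Stat5b or Stat3, Stat5b shared 11.1% with Stat5a, Il2rg shared 40.8% with the predicted gene Gm20489, Il2 shared 12.6% with Ntan1, and Cish and Socs2 shared 12% and 14.9% with predicted genes, so their values are uncertain to that extent.

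Total counts per sample ran from 43402632 to 64290105, and none of the pairs of replicates was close to sampling noise. The 10 T cell markers, Cd3e, Cd4 and Cd28 among them, were all expressed in all 4 groups, with summed levels of 2179 to 2226 FPKM in Control, 2048 to 2136 with metformin, 1821 to 1894 with FK506 and 1994 to 2023 with both drugs. Markers of other cells moved with FK506. The 10 B cell markers summed to 51.3 to 53.3 FPKM in Control, 67.6 to 75.5 with metformin, 838 to 887 with FK506 and 410 to 441 with both drugs. The 10 macrophage and monocyte markers summed to 4.70 to 4.72, 9.10 to 10.4, 1296 to 1346 and 854 to 969 FPKM in the same order, and C1qa and Adgre1 had no count in any Control sample. All 20 of these markers were called higher with FK506 than in Control, as were 41.3% of all tested genes. Of the 10 macrophage and monocyte markers, 1 had a mean of 0.5 FPKM or more in Control, 1 with metformin and 10 with FK506. Most of them thus passed the filter through the FK506 groups, so their call as higher was close to fixed in advance. The part of these other cells in the results on the members was not tested. In bulk RNA fewer cells of a type and less RNA per cell cannot be told apart.

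Il2, the cytokine gene, was low in every sample and highest in Control. Its level was 4.45, 3.85 and 3.98 FPKM in the Control samples, 1.63, 1.64 and 2.01 with metformin, 0.712, 0.871 and 0.626 with FK506, and 0.639, 0.854 and 1.65 under both drugs. Every treated sample lay under every Control sample, and the FK506 and Metformin+FK506 samples overlapped. Il2 was above 40.3% of the tested genes in Control and above 11.6% with FK506. The levels rest on 221 to 235 counts per sample in Control and on 30 to 53 with FK506, which makes Il2 the least precise of the 10 genes. Differences between groups were tested on the counts with edgeR over all 15197 genes, a log2 difference being the first group named against the second, and a gene was called where the adjusted p was under 0.05. On the log2 scale Il2 fell by 2.67 with FK506 (SE 0.28, edgeR adjusted p = 1.65e-07), fell by 1.25 with metformin (SE 0.26, adjusted p = 0.00060) and fell by 2.17 with both (SE 0.27, adjusted p = 1.45e-06). Metformin+FK506 differed from FK506 by 0.50 (95% interval -0.12 to 1.12, adjusted p = 0.217), which did not pass the test. The third sample with both drugs was the highest of its group, and without it that difference was 0.049.

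Il2ra, which encodes CD25, showed the largest distance in FPKM between Control and each drug group among the 10 genes. It measured 339, 342 and 338 FPKM in Control, 155, 154 and 158 with metformin, 50.7, 52.8 and 49.1 with FK506, and 53.6, 50.04 and 50.7 under both drugs. The groups were ordered Control, metformin, and then the FK506 groups with no overlap except between FK506 and Metformin+FK506. In Control 98.9% of the tested genes had a lower FPKM than Il2ra, and with FK506 90.8% had. The level was 6.69-fold lower in FPKM with FK506 than in Control and 2.18-fold lower with metformin. The fitted log2 differences from Control were -2.96 with FK506 (SE 0.036, adjusted p = 4.91e-19), -1.16 with metformin (SE 0.034, adjusted p = 9.19e-14) and -2.92 with both (SE 0.036, adjusted p = 7.42e-19). Adding metformin to FK506 gave a difference of 0.040 from FK506 alone, with a 95% interval of -0.033 to 0.113 and an adjusted p of 0.409.

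Il2rb, the signalling beta chain that also serves IL-15, was lower in all 3 drug groups. Its FPKM were 239, 249 and 240 in Control, 110, 102 and 109 with metformin, 97.97, 101 and 96.2 with FK506, and 130, 118 and 138 under both drugs. The order was thus Control, Metformin+FK506, metformin and FK506, and no neighbours in it overlapped. The log2 difference from Control was -1.47 with FK506 (SE 0.041, adjusted p = 6.40e-15), -1.16 with metformin (SE 0.041, adjusted p = 8.41e-13) and -1.04 with both (SE 0.041, adjusted p = 4.85e-13). With both drugs it was higher than with FK506 by 0.43 (SE 0.041, adjusted p = 8.32e-07). It was also higher than with metformin by 0.12 (adjusted p = 0.0122), a call that was lost without metformin replicate 2 (0.091), without replicate 3 of both drugs (0.093) and with no filter on low values (0.083).

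Il2rg, the common gamma chain that also serves the receptors of IL-4, IL-7, IL-9, IL-15 and IL-21, changed less than Il2ra and Il2rb in each drug group against Control. It measured 355, 355 and 344 FPKM in Control, 297, 304 and 306 with metformin, 425, 428 and 406 with FK506, and 373, 338 and 386 under both drugs. The metformin samples were the lowest and the FK506 samples the highest, while Control and Metformin+FK506 overlapped. The edgeR fit gave a fall by 0.25 on the log2 scale with metformin (SE 0.039, adjusted p = 4.71e-05) and a difference of 0.037 with FK506 (SE 0.039, adjusted p = 0.386). The direction with both drugs depended on the scale, at -0.14 in the main fit (adjusted p = 0.00361), 0.054 on log2(FPKM + 1) and 0.13 when libraries were scaled to the T cell markers. Il2rg with FK506 passed the test as higher on those scales, at 0.25 and 0.45.

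The levels of the 3 chains relative to each other therefore differed between groups, as the plot of FPKM ratios shows. The ratio of Il2ra to Il2rb was 1.40 ± 0.0238 (SD, n = 3) in Control, 1.46 ± 0.0507 with metformin, 0.516 ± 0.00488 with FK506 and 0.400 ± 0.0298 under both drugs. Alpha chain transcript exceeded beta chain transcript per length in all Control and metformin samples and was below it in all 6 samples with FK506. The ratio of Il2ra to Il2rg was 0.967 ± 0.0140 in Control, 0.515 ± 0.00866 with metformin, 0.121 ± 0.00207 with FK506 and 0.141 ± 0.00879 under both drugs. Il2rb to Il2rg was 0.691 ± 0.0150, 0.354 ± 0.0182, 0.235 ± 0.00374 and 0.353 ± 0.00472 in that order. Control (1.37 to 1.42) and metformin (1.41 to 1.51) overlapped in Il2ra over Il2rb, so this ratio did not separate them. Metformin and Metformin+FK506 overlapped in Il2rb over Il2rg. A ratio within a sample does not depend on the scaling of the library.

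**Figure D1:**
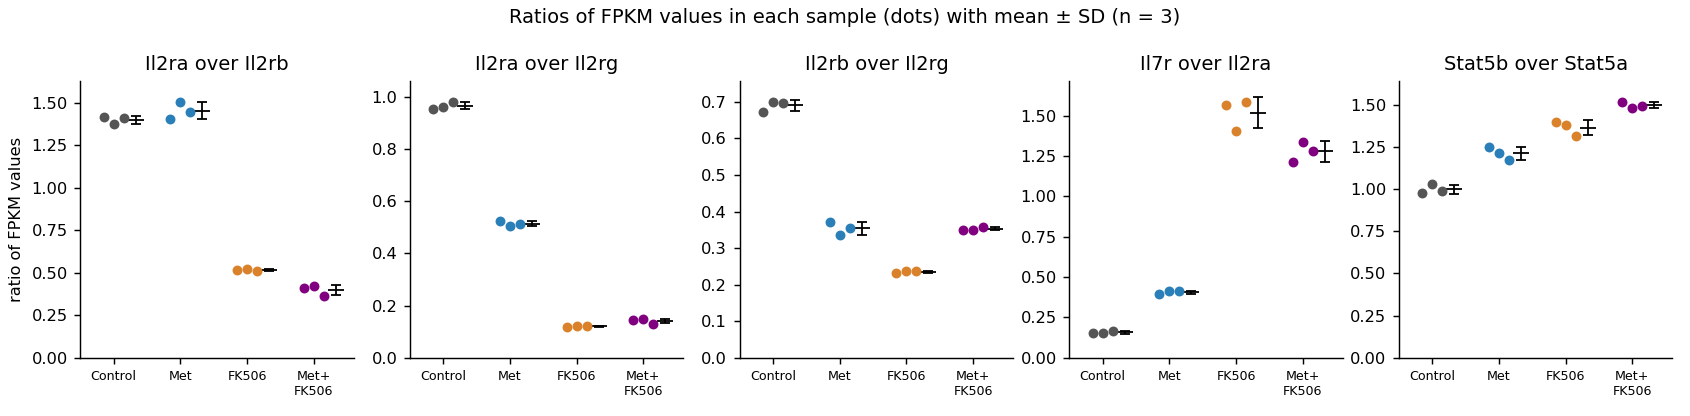
Ratios of the FPKM values of 2 genes within each sample (vertical axis, no unit) for Control, metformin (Met), FK506 and both drugs (Met+FK506), with dots for samples and black bars for mean ± SD of 3. Il2ra over Il2rb was above 1 in every sample without FK506 and under 1 in every sample with it.

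Il7r, the alpha chain of the IL-7 receptor, was higher in all 3 drug groups. It measured 51.2, 53.4 and 55.7 FPKM in Control, 61.6, 63.8 and 64.8 with metformin, 79.3, 74.3 and 78.0 with FK506, and 65.1, 67.1 and 65.0 under both drugs. All treated samples lay above all Control samples, with FK506 the highest. The log2 difference from Control was 0.32 with FK506 (SE 0.043, adjusted p = 4.35e-06) and 0.22 with metformin (SE 0.043, adjusted p = 0.000388). With both drugs it was 0.10 (SE 0.043, adjusted p = 0.0360), and this call was lost without Control replicate 1 (0.071), Control replicate 2 or replicate 2 of both drugs (0.069), with no filter (0.051) and with only the groups compared (adjusted p = 0.0567). Il7r was lower with both drugs than with FK506 (log2 difference -0.21, adjusted p = 0.00134). Against metformin the sign depended on the scale, at -0.12 in the main fit (adjusted p = 0.0216) and 0.051 on log2(FPKM + 1), where the samples with both drugs lay above those with metformin. The call in the main fit was lost without metformin replicate 2 or 3 or replicate 1 or 3 of both drugs (-0.11 to -0.091).

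The ratio of Il7r to Il2ra combined these opposite differences. It was 0.157 ± 0.00687 (SD, n = 3) in Control, 0.407 ± 0.00942 with metformin, 1.52 ± 0.0979 with FK506 and 1.28 ± 0.0628 under both drugs. Per length, Il2ra transcript outnumbered Il7r transcript in every sample without FK506, and the reverse held in every sample with it.

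Stat5a and Stat5b encode close relatives that receive the signal of both IL-2 and IL-7. Stat5a measured 63.4, 63.4 and 61.7 FPKM in Control, 42.9, 44.3 and 46.8 with metformin, 38.0, 39.8 and 40.3 with FK506, and 43.2, 40.5 and 43.1 under both drugs. Control stood above all treated samples, and metformin overlapped with Metformin+FK506. Stat5a fell by 0.89 on the log2 scale with FK506 (SE 0.039, adjusted p = 2.02e-12), fell by 0.52 with metformin (SE 0.039, adjusted p = 8.53e-09) and fell by 0.76 with both (SE 0.039, adjusted p = 1.44e-11). The difference of 0.13 between both drugs and FK506 (adjusted p = 0.0211) was lost when any of 4 samples was left out, FK506 replicate 1 or 2 or replicate 1 or 3 of both drugs, at 0.096 to 0.12, and also on log2(FPKM + 1) (0.10), on log2(FPKM + 0.1) (0.10), with no filter (0.11) and with only the groups compared (0.12). It had the other sign when libraries were scaled to the T cell markers (-0.022).

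Stat5b moved less than Stat5a against Control. It measured 62.2, 65.2 and 60.9 FPKM in Control, 53.6, 53.8 and 54.9 with metformin, 53.1, 55.0 and 52.9 with FK506, and 65.7, 60.1 and 64.4 under both drugs. The metformin and FK506 groups overlapped each other and lay below Control, whereas Metformin+FK506 overlapped with Control. The log2 difference from Control was -0.43 with FK506 (SE 0.035, adjusted p = 6.31e-09), -0.25 with metformin (SE 0.035, adjusted p = 1.61e-05) and -0.17 with both (SE 0.035, adjusted p = 0.000258). The value with both drugs was 0.014 on log2(FPKM + 1) and 0.097 with libraries scaled to the T cell markers, and that with FK506 was -0.017 on the latter scale and no longer passed. Stat5b was higher with both drugs than with FK506 by 0.26 (SE 0.035, adjusted p = 2.91e-05). The ratio of Stat5b to Stat5a was 0.998 ± 0.0261 in Control, 1.21 ± 0.0384 with metformin, 1.36 ± 0.0458 with FK506 and 1.499 ± 0.0189 under both drugs, with no overlap between the groups.

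Cish, which encodes the SH2 protein CIS and is among the most direct targets of STAT5, fell the furthest of the 10 genes with FK506 and with both drugs, while with metformin Socs1, Il2, Il2ra and Il2rb fell further. It measured 160, 164 and 162 FPKM in Control, 84.6, 82.0 and 80.8 with metformin, 18.7, 19.4 and 19.5 with FK506, and 13.02, 13.7 and 14.3 under both drugs. The 4 groups formed 4 separate levels with no overlap. The mean was 8.43-fold lower in FPKM with FK506 than in Control, 1.96-fold lower with metformin and 11.8-fold lower with both. The fitted log2 differences from Control were -3.30 (SE 0.040, adjusted p = 4.91e-19), -1.01 (SE 0.037, adjusted p = 1.35e-12) and -3.76 (SE 0.042, adjusted p = 2.25e-19). Of the tested genes, 1.41% had a lower log2 difference than Cish with both drugs. Cish was lower with both drugs than with FK506 alone (log2 difference -0.47, SE 0.040, adjusted p = 2.49e-07).

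Socs1, an inhibitor that blocks JAK kinases directly, was lower in every treated sample. Its FPKM were 97.9, 92.1 and 96.2 in Control, 36.5, 34.6 and 33.1 with metformin, 28.2, 26.3 and 27.8 with FK506, and 23.5, 27.7 and 20.6 under both drugs. The FK506 and Metformin+FK506 samples overlapped and lay under those with metformin. Socs1 fell by 2.00 on the log2 scale with FK506 (SE 0.081, adjusted p = 8.02e-13), fell by 1.46 with metformin (SE 0.080, adjusted p = 1.99e-10) and fell by 2.16 with both (SE 0.082, adjusted p = 3.21e-13). Both drugs differed from FK506 by -0.16 (95% interval -0.34 to 0.013, adjusted p = 0.152). Without replicate 2 of both drugs that difference was -0.31 and passed (adjusted p = 0.0022), as it did at -0.31 with T cell marker scaling (adjusted p = 0.00446).

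Socs2, an adaptor of a ubiquitin ligase best known for restraining growth hormone signalling, behaved differently under the 2 drugs. It measured 22.0, 22.8 and 21.9 FPKM in Control, 10.9, 10.3 and 10.3 with metformin, 32.3, 29.9 and 31.7 with FK506, and 29.0, 28.6 and 26.9 under both drugs. Metformin samples lay below Control and all 6 samples with FK506 lay above it. Socs2 fell by 1.00 on the log2 scale with metformin (SE 0.043, adjusted p = 8.54e-12), and was higher by 0.48 with FK506 (SE 0.041, adjusted p = 1.20e-08) and by 0.54 with both (SE 0.041, adjusted p = 2.30e-09). Between both drugs and FK506 the main fit gave 0.065 (adjusted p = 0.245), while on log2(FPKM + 1) the difference was -0.15 and the samples did not overlap. The ratio of Cish to Socs2 was 7.28 ± 0.0975 in Control, 7.84 ± 0.0782 with metformin, 0.614 ± 0.0349 with FK506 and 0.486 ± 0.0419 under both drugs.

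**Figure D2:**
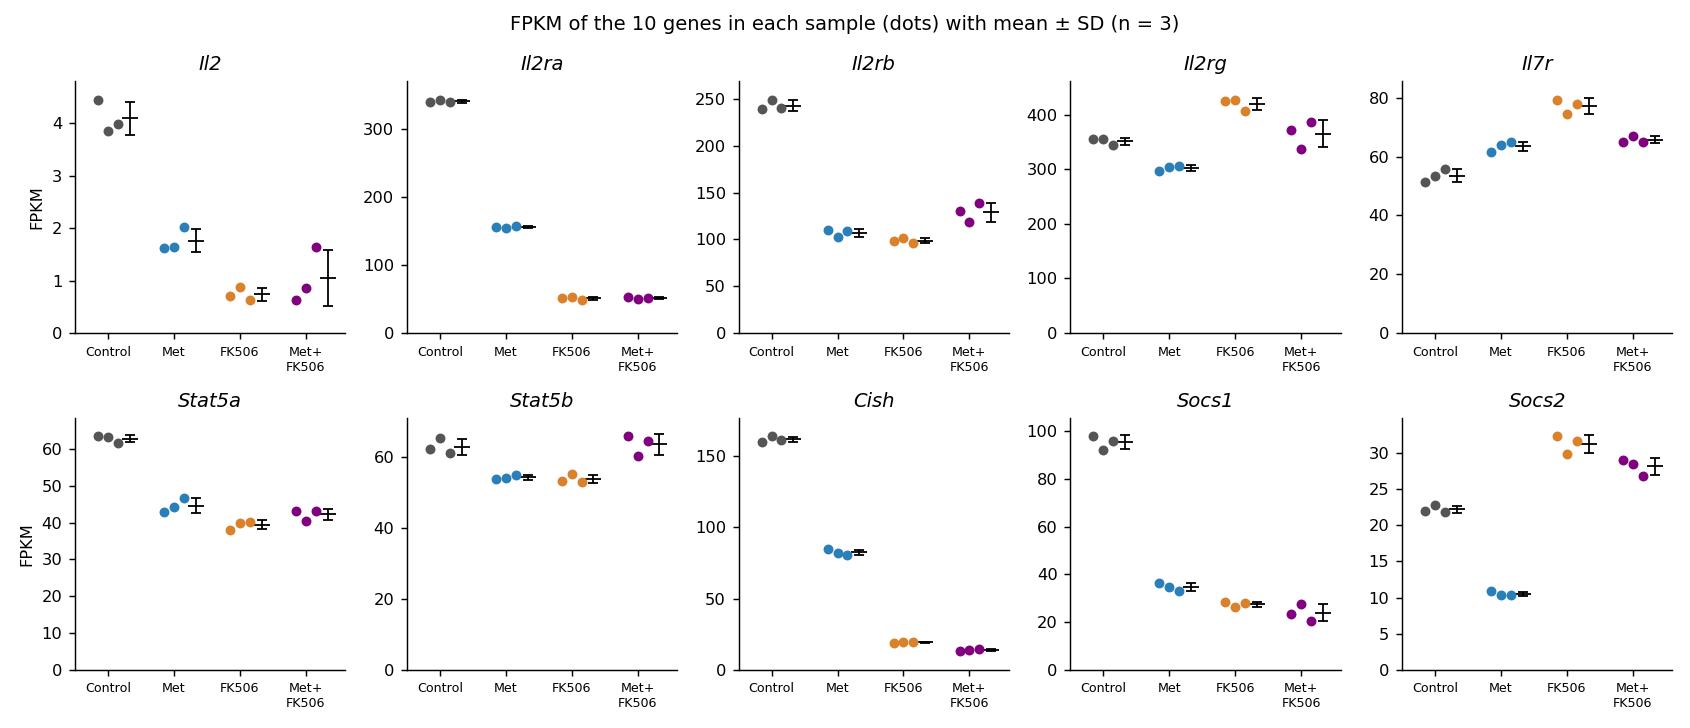
FPKM (vertical axis) of each of the 10 genes in every sample, with dots for samples and black bars for mean ± SD of 3, for Control, metformin (Met), FK506 and both drugs (Met+FK506). Il2ra and Cish step down from 340 and 162 FPKM in Control to 50.8 and 19.2 with FK506, Socs2 goes up from 22.2 to 31.3, and Il2rg stays between 297 and 428 FPKM in all samples.

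Counted over the comparisons, FK506 against Control passed the test for 9 members, 2 higher (Il7r and Socs2) and 7 lower, where 80.9% of all tested genes passed, 41.3% higher and 39.6% lower. Metformin against Control passed for all 10 members, 1 higher (Il7r) and 9 lower, beside 56% of all genes, 28.6% higher and 27.4% lower. Metformin+FK506 against Control passed for 10, 2 higher and 8 lower, beside 81.7% of all genes, of which 42.1% of the tested genes were higher and 39.6% lower. Of all genes called, 51.1%, 51.1% and 51.6% were higher in these comparisons, and with libraries scaled to the T cell markers 70.2%, 60.05% and 63.96% were, where the members split into 3 higher and 6 lower, 1 and 9, and 4 and 6. On log2(FPKM + 1) the members split into 3 and 7, 1 and 9, and 2 and 6, where 61.3%, 55.1% and 60.0% of all genes called were higher. On log2(TPM + 1) they split into 3 and 6, 1 and 9, and 4 and 6, where 71.2%, 47.6% and 71.0% were. The median log2 difference of the 10 was -1.18 with FK506, -1.004 with metformin and -0.90 with both, where the median of all tested genes was 0.024, 0.011 and 0.033. With T cell marker scaling the medians of the 10 were -0.76, -0.94 and -0.63, and on log2(TPM + 1) they were -0.75, -1.05 and -0.47. The samples of the groups did not overlap in FPKM for 10 members with FK506 (84.4% of all genes), 10 with metformin (65%) and 8 under both drugs (82%).

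Adding metformin to FK506 passed the test for 6 members, 3 higher and 3 lower, beside 30.7% of all genes, 15.6% higher and 15% lower. Il2rb, Stat5a and Stat5b were higher and Il2rg, Il7r and Cish lower, and the median over the members was 0.052. On other scales the median was below 0, at -0.095 with T cell marker scaling (2 higher, 5 lower), -0.066 on log2(FPKM + 1) (2 and 4) and -0.036 on log2(TPM + 1) (3 and 3). Of all genes called, 15.9% were higher with T cell marker scaling. Adding FK506 to metformin passed for 9 members, 3 higher and 6 lower, beside 78.2% of all genes, 40.3% higher and 37.9% lower. This split depended on the scale, with 4 higher and 4 lower with T cell marker scaling and on log2(FPKM + 1), and 6 higher and 3 lower on log2(TPM + 1), where 75.5% of all genes called were higher. The median of the members was -0.18 in the main fit, 0.024, -0.013 and 0.31 on these scales. Il2rb, Il2rg and Socs2 were higher, with Socs2 at 1.55 (SE 0.043, adjusted p = 6.83e-15). The call of Il2rg (0.11) was lost without metformin replicate 1 (0.094), without replicate 3 of both drugs (0.079), with no filter (0.070) and with only the groups compared (0.10). Il2, Il2ra, Il7r, Stat5a, Cish and Socs1 were lower, and the largest of these were Cish at -2.76 (SE 0.040, adjusted p = 5.16e-18) and Il2ra at -1.76 (SE 0.035, adjusted p = 1.42e-16). The Il2 samples of the 2 groups overlapped, and its call was lost on log2(TPM + 1) (-0.38, limma adjusted p = 0.0907). Stat5a was at -0.24 in the main fit and at 0.24 on log2(TPM + 1), so its direction against metformin depended on the scale. Stat5b did not pass in the main fit (0.074) and passed as higher on the T cell marker, FPKM and TPM scales, at 0.22 to 0.55. It also passed with RLE size factors (0.085), with DESeq2 (0.085), with a filter on the mean FPKM (0.094) and without replicate 2 of both drugs (0.11). The samples did not overlap in FPKM for 7 members against FK506, as for 38.6% of all genes, and for 8 against metformin, as for 78.2%. Comparisons that share a group of samples are not independent of each other.

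**Figure D3:**
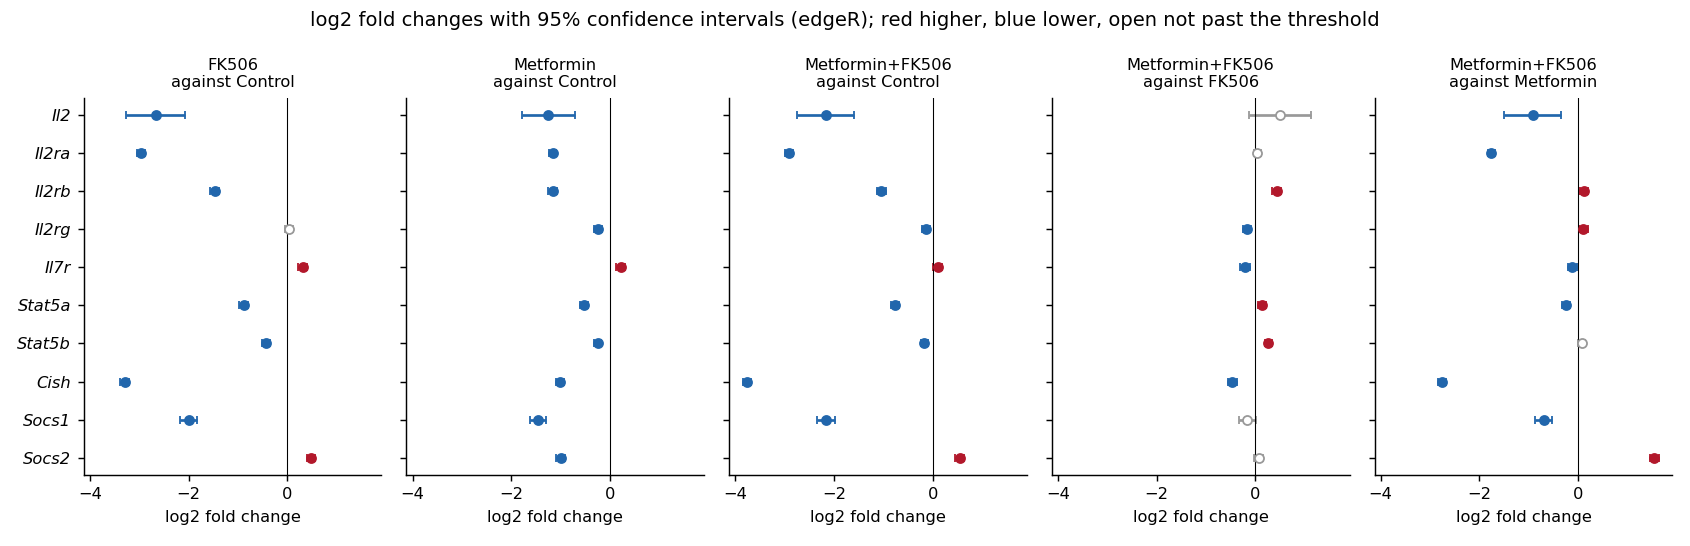
Log2 fold change from edgeR (horizontal axis) with its 95% confidence interval for the 10 genes in 5 comparisons, filled red where higher and filled blue where lower past an adjusted p of 0.05, open where not past it. Il2ra and Cish lie near -3 with FK506 and near -1 with metformin, and against FK506 alone all values with both drugs lie within -0.47 and 0.50.

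The interaction tests whether the change with both drugs equals the sum of the changes with each drug alone, on the log2 scale. It passed for 9 of the 10 members, 8 higher and 1 lower, beside 46.5% of all tested genes, 22.5% higher and 24% lower. For Il2ra the single changes summed to -4.12 while the change with both was -2.92, an interaction of 1.20 (SE 0.048, adjusted p = 9.13e-12). Il2rb had a sum of -2.63 and a change with both of -1.04, an interaction of 1.59 (SE 0.058, adjusted p = 2.76e-12). Il2, Stat5a, Stat5b, Cish and Socs1 likewise changed by less with both drugs than the sum, by 1.74, 0.65, 0.51, 0.54 and 1.30. For Socs2 the single changes had opposite signs and the change with both was 0.54, an interaction of 1.07 (SE 0.058, adjusted p = 3.89e-10). Il7r had a sum of 0.54, a change with both of 0.10 and an interaction of -0.43 (SE 0.061, adjusted p = 2.35e-05), and Il2rg did not pass at 0.071 (95% interval -0.046 to 0.188, adjusted p = 0.315). These 9 calls held under every scaling tried and without each sample in turn.

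**Figure D4:**
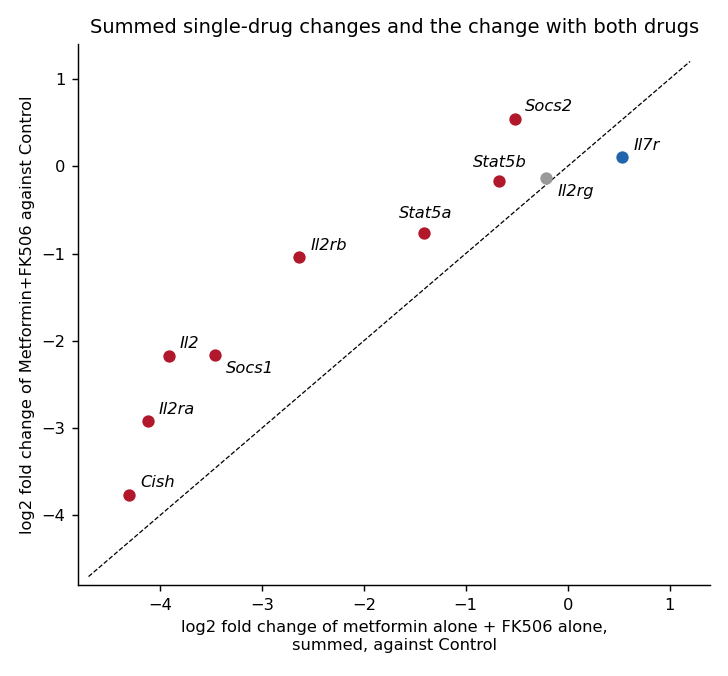
Log2 fold change with both drugs against Control (vertical axis) against the sum of the log2 fold changes with metformin alone and FK506 alone (horizontal axis), 1 dot per gene, with a dashed line where both are equal. The 8 red genes lie above the line and Il7r (blue) below it, each past an adjusted p of 0.05 for the interaction, and Il2rg (grey) lies near the line.

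Genes known to be induced through STAT5 in T cells, 14 besides the members, mostly followed Il2ra and Cish. They were chosen with earlier results of these data known, so their likeness to Il2ra and Cish is no independent evidence. Of these, 10 fell and 4 rose with FK506, with a median log2 difference of -1.76, and 13 fell and none rose with metformin, with a median of -0.71. Over all tested genes 39.6% fell and 41.3% rose with FK506, and 27.4% fell and 28.6% rose with metformin, and these shares stand beside the counts of the lists that follow. Gzmb, the protease granzyme B, went from 753 ± 25.3 FPKM (SD, n = 3) in Control to 292 ± 4.87 with metformin and 17.2 ± 3.85 with FK506. Lta (lymphotoxin alpha) fell by 3.53 on the log2 scale with FK506 and by 1.02 with metformin, and the survival gene Bcl2 fell by 2.50 and 0.65. Nfil3 and Osm fell with metformin by 1.37 and 1.15. The 4 that rose with FK506 were Foxp3, Prdm1, Dusp5 and Mcl1, and Mcl1 was the gene that did not pass with metformin (0.02).

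Foxp3, the factor that defines regulatory T cells and depends on STAT5 for its induction, was at 3.48 ± 0.259 FPKM in Control, 2.49 ± 0.370 with metformin, 26.7 ± 1.18 with FK506 and 32.3 ± 1.46 under both drugs. It was higher than in Control by 2.72 on the log2 scale with FK506 (SE 0.075, adjusted p = 5.04e-15), in the direction opposite to Il2ra, and fell by 0.52 with metformin (SE 0.084, adjusted p = 6.72e-05).

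The list of genes known to be lowered by IL-2 and STAT5 held 4 genes, and all 4 were higher with FK506, with metformin and with both drugs. Their median log2 differences were 2.29, 1.27 and 2.42. Against Control 41.3% of all tested genes rose with FK506, 28.6% with metformin and 42.1% with both drugs. The summed B cell markers rose beside them, from 51.3 to 53.3 FPKM in Control to 838 to 887 with FK506, as did the macrophage and monocyte markers, from 4.70 to 4.72 to 1296 to 1346, and the part of such cells in this list and in the other lists was not tested. Bcl6, the repressor of follicular helper cells, went from 1.40 ± 0.131 FPKM in Control to 11.04 ± 1.12 with metformin and 19.9 ± 0.389 with FK506. Tcf7, the TCF1 gene of naive and memory cells, rose by 2.58 on the log2 scale with FK506 and by 1.57 with metformin, and the IL-6 receptor genes Il6st and Il6ra rose by 2.00 and 0.89 with FK506. Counts against Control of both STAT5 lists were identical when libraries were scaled to the T cell markers and on log2(FPKM + 1) and log2(TPM + 1).

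Other genes of the common gamma chain family included the cytokine genes Il4, Il9 and Il21, which fell with each drug alone. Of 9 tested, 6 fell and 2 rose with FK506, and 7 fell and 1 rose with metformin, with medians of -0.50 and -0.76, where 39.6% of all genes fell with FK506 and 27.4% with metformin. With FK506 4 fell and 4 rose on the T cell marker and TPM scales, with medians of -0.082 and -0.046, and the median was -0.28 on log2(FPKM + 1). With metformin the medians on log2(FPKM + 1) and log2(TPM + 1) were -0.36 and -0.42. The cytokine genes Il4 and Il21 fell by 6.57 and 6.39 on the log2 scale with FK506 and by 1.94 and 2.97 with metformin, from 42.0 and 13.3 FPKM in Control. Il9 had 50 to 68 counts in Control and none with FK506, at least 24.0-fold lower against a floor of 3 counts per library. Il9 passed the filter only through its Control samples, so it could only be counted among the genes that fell. Il15, which shares Il2rb and Il2rg, rose by 4.18 with FK506, from 0.618 ± 0.234 to 14.4 ± 0.886 FPKM, and Il9r rose by 2.77. Il15 is also made by macrophages, whose summed markers went from 4.70 to 4.72 FPKM in Control to 1296 to 1346 with FK506, and their part in its rise was not tested. Il15 passed the filter only with the FK506 samples counted, where it was high. Il4ra fell by 1.34 with FK506 and by 1.13 with metformin.

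The kinases of the receptor split. Jak3, which sits on the common gamma chain, was at 121 ± 2.67 FPKM in Control, 95.2 ± 3.53 with metformin and 47.6 ± 1.41 with FK506, and fell by 1.56 on the log2 scale with FK506 (SE 0.036, adjusted p = 5.96e-16). Jak1, which sits on the beta chain, was at 55.0 ± 1.40, 68.3 ± 0.703 and 160 ± 5.62 FPKM, and rose by 1.25 with FK506 (SE 0.032, adjusted p = 2.00e-15). Of the 8 listed genes of Janus kinases and other STATs, 4 rose and 4 fell with FK506 (median -0.075), and 3 rose and 4 fell with metformin (median -0.13). With FK506 the median was above 0 on the other scales, at 0.34 with T cell marker scaling, 0.14 on log2(FPKM + 1) and 0.38 on log2(TPM + 1), with 4 higher and 3 lower on the first and the last. With metformin it ran from -0.15 to -0.068 on these scales. Stat2, which acts in interferon signalling, fell by 1.64 with metformin and by 0.91 with FK506. Stat3 fell by 0.86 with metformin.

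Of 11 other SOCS genes and inhibitors of cytokine signalling, 7 rose and 3 fell with FK506 (median 0.20), and 5 rose and 5 fell with metformin (median 0.070, and 0.045 to 0.14 on the other scales). With FK506 8 rose and 2 fell on each of the other 3 scales, with medians of 0.62 with T cell marker scaling, 0.40 on log2(FPKM + 1) and 0.64 on log2(TPM + 1). Socs3 moved as Socs1 did, at 47.7 ± 1.12 FPKM in Control, 10.9 ± 0.305 with metformin, 8.86 ± 0.335 with FK506 and 7.90 ± 1.12 under both drugs, and its log2 differences from Control were -2.15, -2.53 and -2.67. The phosphatase gene Ptpn2 fell by 1.19 with FK506, and Sh2b3, the adaptor LNK, rose by 1.33.

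Transcription factors that act at Il2 moved in both directions. Of 13, 8 rose and 4 fell with FK506 (median 0.31), and 8 rose and 5 fell with metformin (median 0.20). On the other 3 scales 9 rose and 4 fell with FK506, with medians of 0.41 to 0.72. Fos, Rel and Nfatc3 rose with FK506 by 2.35, 1.40 and 0.97 on the log2 scale, and Junb, Crem and Nfkb1 fell by 1.71, 1.51 and 1.08. Of the 6 factors that act at Il7r, 4 rose and 1 fell with FK506 (median 0.35), and on the other 3 scales 5 rose and 1 fell, with medians of 0.52 to 0.77. The gene that fell was Gfi1, a repressor of Il7r, from 37.1 ± 2.17 FPKM in Control to 5.33 ± 0.500, a fall by 3.02 (SE 0.077, adjusted p = 1.91e-15), while Foxo1 and Foxp1 were higher by 0.23 and 1.11. With metformin Gfi1 did not pass (-0.14, adjusted p = 0.0914) and Foxo1 fell by 0.28. Of the 9 receptor adaptors, 4 rose and 3 fell with FK506 on the edgeR scale (median 0.068). With T cell marker scaling 7 rose and 1 fell (median 0.48), on log2(FPKM + 1) 6 rose and 2 fell (0.28), and on log2(TPM + 1) 7 rose and none fell (0.51). Syk, which B and myeloid cells also express, rose by 4.90 with FK506.

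**Figure D5:**
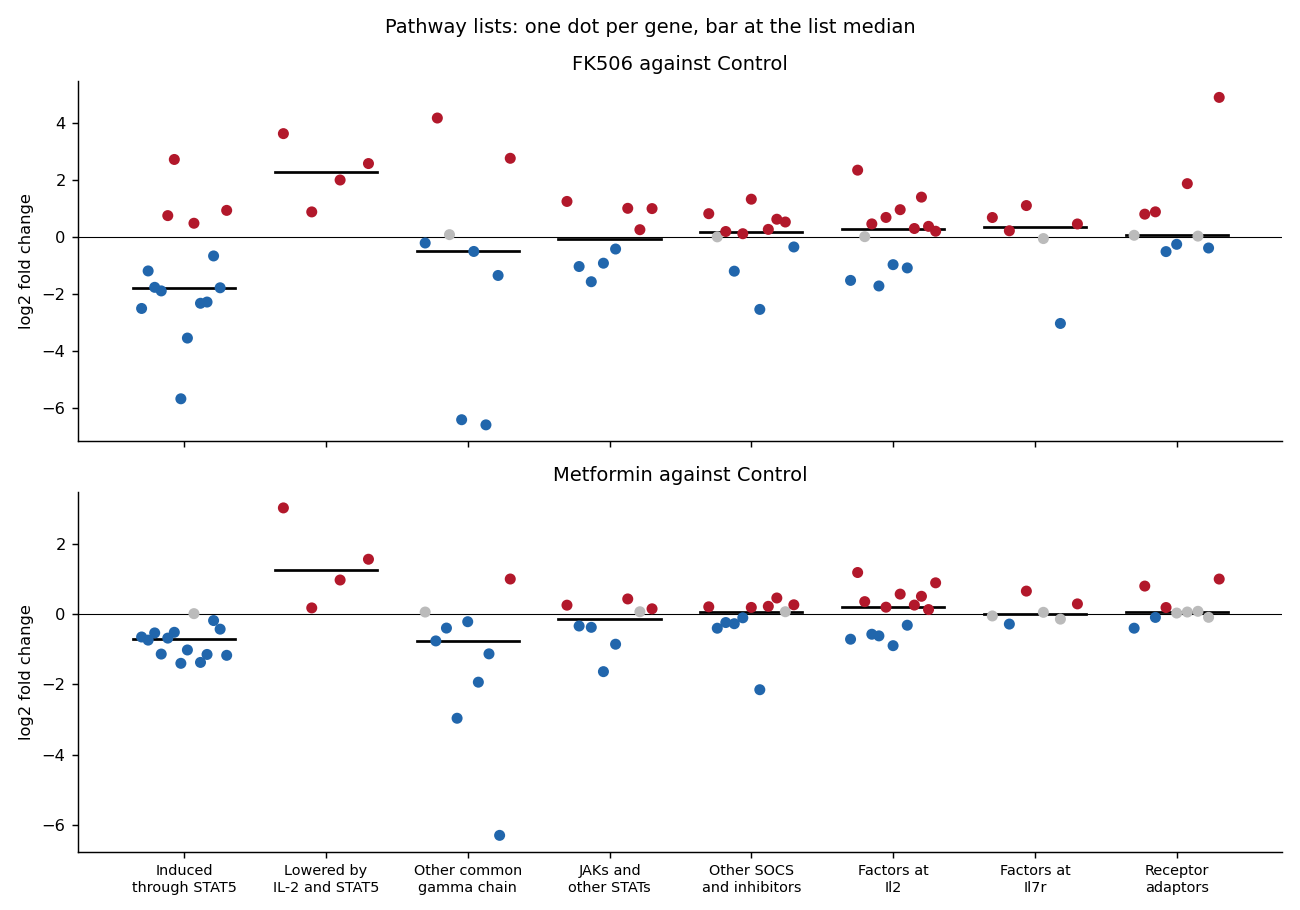
Log2 fold change from edgeR (vertical axis) of each tested gene of 8 pathway lists (horizontal axis) with FK506 and with metformin against Control, with dots red where higher, blue where lower past an adjusted p of 0.05 and grey otherwise, and a bar at the list median. Genes induced through STAT5 have medians of -1.76 and -0.71, genes lowered by STAT5 lie wholly above 0 in both panels, and Il9 with FK506 is not drawn because all FK506 counts were 0.

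The STAT5 lists were also compared with both drugs present. Of the 14 STAT5-induced genes, 4 rose and 10 fell against Control (median -1.75), where 42.1% of all genes rose and 39.6% fell. Against FK506 alone 2 rose and 6 fell (median -0.10), where 15.6% of all genes rose and 15% fell. With T cell marker scaling none rose and 8 fell against FK506 (median -0.25), where 15.9% of all genes called were higher. Pim2, a kinase gene that supports survival, was lower than with FK506 (log2 difference -0.53) and Foxp3 higher (0.29). Against metformin alone 4 of the 14 rose and 10 fell, where 40.3% of all genes rose and 37.9% fell, with Gzmb at -4.36 and Foxp3 at 3.53. The interaction passed for 12 of the 14, 11 higher and 1 lower, with a median of 0.78 beside -0.020 over all tested genes, and for 3 of the 4 STAT5-lowered genes, all lower, with Bcl6 at -2.79. Over all tested genes the interaction passed for 46.5%, 22.5% higher and 24% lower.

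The genes whose pattern over the 12 samples lay nearest to each member were found by the root mean square difference of log2(FPKM + 1) values, each gene centred on its own mean, which is a description and has no test. Nearest to Il2ra was Vldlr, a lipoprotein receptor gene, at 0.060, which went from 6.75 FPKM in Control to 2.31 with metformin and 0.093 with FK506, followed by the cytokine gene Mif at 0.10, which went from 884 FPKM in Control to 403 with metformin and 139 with FK506. Nearest to Cish were Pla2g12a (0.14) and Gstt1 (0.17), and nearest to Il2 were P4ha1 (0.13) and the perforin gene Prf1 (0.15). Il2rb lay nearest to Cysltr1 and Cyp2s1 (0.11 each), Socs1 to 9530082P21Rik (0.11) and Pkp2 (0.13), and Socs2 to Rnf145 (0.076) and Dock5 (0.093). The members of small change had the nearest neighbours, Jpt1 (0.025) and Ywhah (0.053) for Il2rg, Upf2 (0.046) and Zfp53 (0.048) for Il7r, Gm5855 (0.046) and Itpripl1 (0.047) for Stat5a, and Zfp507 (0.049) and Mapre2 (0.052) for Stat5b. For genes of low level the offset of 1 makes the difference on this scale smaller than the fold of the FPKM values, as for Vldlr, for Gm5855 at 0.695 FPKM in Control, and for 9530082P21Rik and Pkp2 at 3.65 and 3.35. No member was among the 2 nearest genes of another.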

How the data were processed

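Poly(A) RNA of 12 samples was sequenced on an Illumina instrument, 3 samples in each of 4 groups taken from the sample labels. The authors deposited a table of counts per gene, whole numbers without normalization, beside FPKM and TPM values of the same samples. The submitters' processing notes name bcl2fastq 2.20.0, Trimmomatic, HISAT2 2.1.0, StringTie 2.1.3b and the build mm10, without their roles. The use of strand is not given in the sources used here. All per-sample columns belonged to these 12 samples. The authors' comparisons, if any, were not used.

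Counts entered the quasi-likelihood test of edgeR 4.0.16 under R 4.3.3 after TMM scaling, with all 4 groups in 1 fit (8 residual degrees of freedom). Genes that reached 0.5 FPKM in 3 or more samples were kept (15197 of 45777). P-values were adjusted by Benjamini-Hochberg over these genes, with a threshold of 0.05. Standard errors are the log2 difference over the square root of F. Besides 5 comparisons between groups, the interaction of both drugs was tested. The test was tried on simulated counts with known changes. A floor of 3 counts per library was used, which covers counting error only.

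The members and the 13 other lists, with 118 entries, were chosen with earlier results of these data known. Named genes are the members, up to 4 genes of each list with the largest changes past the threshold in a comparison, Foxp3, and the 2 genes nearest to each member. Mcl1, Dusp5, Il6ra, Nfatc3, Nfkb1, Foxo1, Stat3, Pim2, Cd8a and Il4ra were named after their values were seen. Il7, Klrb1c and Ncr1 did not pass the filter. A gene of the kinase and STAT list is not reported here.

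Alternatives were RLE size factors, scaling to the 10 T cell markers, DESeq2 1.42.0, limma 3.58.1 on log2(FPKM + 1), log2(FPKM + 0.1) and, chosen after seeing the data, log2(TPM + 1), other filters, only the groups compared, the replicate number as a block, and leaving out each sample. The lists were recounted on 3 of these scales, also after seeing the data. Upstream sequences and coordinates came from RefSeq and GENCODE M21 on GRCm38, the assembly of mm10.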

Additional observations from a re-analysis of the deposited data

Results flagged for a closer look

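For 9 of the 10 genes the effect of metformin differed with and without FK506, by the interaction term of the edgeR fit. This term passed for 46.5% of all tested genes, 22.5% higher and 24% lower. The log2 interactions were 1.74 for Il2, 1.20 for Il2ra, 1.59 for Il2rb, 0.65 for Stat5a, 0.51 for Stat5b, 0.54 for Cish, 1.30 for Socs1 and 1.07 for Socs2, and -0.43 for Il7r. Il2ra fell by 1.16 with metformin alone, and metformin on top of FK506 gave a difference of 0.040. For Il2rb the effect of metformin changed sign, from -1.16 alone to 0.43 on top of FK506, and for Stat5b from -0.25 to 0.26. Il7r rose by 0.22 with metformin alone and was at -0.21 when metformin was added to FK506. The summed B cell markers were 838 to 887 FPKM with FK506 and 410 to 441 with both drugs, and the part of other cells in these interactions was not tested.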

How the results depend on the processing

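The number of members called moved by no more than 1.5 times under any alternative. Leaving out each sample in turn gave 9 members and 11901 to 11998 of the 15197 tested genes for FK506 against Control. For metformin against Control it gave 10 members and 7753 to 7884 genes, and for both drugs against Control 9 to 10 and 11990 to 12297. For both against FK506 it gave 5 to 7 members and 3672 to 4745 genes, and for both against metformin 6 to 10 and 11427 to 11789. The interaction passed for 9 members and 6485 to 7093 genes. Il2 with both drugs ranged from -2.61 to -1.92 against Control and from -1.36 to -0.67 against metformin. Scaling libraries to the T cell markers moved the median of all genes to 0.44 for FK506 and 0.30 for both drugs against Control, and to -0.15 for both against FK506, and log2(FPKM + 1) and log2(TPM + 1) moved that with FK506 to 0.19 and 0.42. Of all genes called for both drugs against FK506, 50.9% were higher in the main fit and 15.9% with the T cell marker scaling, and for the interaction 48.3% and 23.9%. Signs of small differences turned with these scales. With T cell marker scaling they were 0.13 for Il2rg and 0.097 for Stat5b with both drugs against Control, -0.11 for Il2ra, -0.022 for Stat5a and -0.083 for Socs2 against FK506, 0.085 for Il7r against metformin, and -0.14 for the interaction of Il2rg. With log2(FPKM + 1) Il2rg was at 0.054, Stat5b at 0.014, Socs2 at -0.15 and Il7r at 0.051 in the same comparisons, and with log2(FPKM + 0.1) at 0.054, 0.014, -0.15 and 0.052. With log2(TPM + 1) Stat5b was at 0.013 with FK506 against Control, Il2rg at 0.32 and Stat5b at 0.28 with both drugs, Socs2 at -0.12 against FK506, and Il7r at 0.37 and Stat5a at 0.24 against metformin. The cause was not tested. On that scale Il2 with both drugs against metformin no longer passed (-0.38, adjusted p = 0.0907). The differences from Control of Il2, Il2ra, Il2rb, Stat5a, Cish, Socs1 and Socs2 kept direction and call under all alternatives. No pairing by replicate number was seen. The 18 pairs of the same number had correlations of -0.071 to 0.050, and the 36 pairs of other numbers -0.064 to 0.074. Of the 12 samples, 5 correlated best with their own number. The labels do not say whether samples of the same number belong together. With the replicate block the members called were 9, 10, 10, 6, 9 and 9, in the order of comparisons used for leaving out samples. The genes called in all were 12198, 8312, 12308, 4326, 11749 and 6792 in that order. Depth limits Il2 most, at 30 to 74 counts per sample with FK506 or both drugs.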

Other observations

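Of 6 markers of regulatory T cells, Foxp3, Ikzf2 and Nrp1 rose with FK506 by 2.72, 2.42 and 2.28 on the log2 scale, while Ctla4, Tnfrsf18 and Ikzf4 fell by 1.86, 2.29 and 0.45. Their summed level was 560 to 586 FPKM in Control, 312 to 332 with metformin, 203 to 217 with FK506 and 210 to 218 with both drugs. Ctla4 and Tnfrsf18, which activated T cells also express, made up most of it in Control, at 175 and 384 FPKM. With metformin Ctla4 and Tnfrsf18 fell by 0.93 and 0.89, and Ikzf2 and Nrp1 did not pass. On log2(TPM + 1) the sign of Ikzf4 with FK506 was reversed.

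Among markers of CD8 T cells and NK cells, 5 of 7 passed the filter, and all 5 rose with metformin, where 28.6% of all tested genes did. On log2(FPKM + 1) and log2(TPM + 1) 4 of the 5 passed as higher with metformin. With FK506 Klrd1 and Eomes rose, Cd8b1 and Klrk1 fell by 0.75 and 0.46 on the log2 scale, and Cd8a was at 0.12 and did not pass (edgeR adjusted p = 0.407). On log2(FPKM + 1) and log2(TPM + 1) 3 rose and 2 fell with FK506. Klrd1, a receptor chain of NK cells and cytotoxic T cells, went from 3.14 FPKM in Control to 20.2 with metformin, 19.8 with FK506 and 18.3 with both drugs. Eomes, a factor of cytotoxic cells, went from 1.22 to 5.01, 13.6 and 12.02 FPKM. Summed levels of the 7 were 16.2 to 19.4 FPKM in Control, 39.6 to 46.4 with metformin, 42.2 to 44.4 with FK506 and 42.4 to 44.4 with both drugs.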
